A study of Mus musculus with 18 samples.

Results

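The 39 Hox genes of the mouse lie in 4 clusters, HoxA on chromosome 6, HoxB on chromosome 11, HoxC on chromosome 15 and HoxD on chromosome 2. They were taken as all genes of the RefSeq table (GRCm38.p6) whose symbol is Hoxa, Hoxb, Hoxc or Hoxd followed by a number, 39 of the 49943 genes placed on the chromosomes; antisense and opposite-strand transcripts were left out. Methylated DNA was mapped in them by methylated DNA immunoprecipitation sequencing (MeDIP-seq), in which DNA sheared to about 250 bases is enriched for its methylated fragments and sequenced. The samples were heart muscle from 18 male C57BL/6JR mice aged 12 weeks, 1 library a mouse. In 15 mice the left anterior descending coronary artery was tied to cause myocardial infarction (MI), and tissue was taken at 5 times, from 10 min to 72 h later, with 3 mice at each time (the others were 1 h, 6 h and 24 h). The 3 sham mice had the operation with the thread passed and not tied, so all 6 groups share anaesthesia and surgery. A single sham group served all 5 times and was not matched to them. Time since surgery and time since ligation therefore cannot be told apart. Tissue and cell type are labelled as myocardial tissue and Cardiomyocytes, with no isolation of cells described; whether the piece taken held the infarct, its border or remote muscle is not given there. Peak lists hold no expression values, so the labelled cell type was not checked against markers.

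Hox genes encode homeodomain transcription factors that give cells their position along the head-to-tail axis of the embryo. In each cluster the genes sit in the order in which they are used along that axis, with the lowest-numbered genes at one end and the highest-numbered at the other. In adult tissues the clusters are classic targets of Polycomb repressors, they are rich in CpG islands, and such islands are mostly free of DNA methylation. In heart development the low-numbered genes, among them Hoxb1 and Hoxa3, mark progenitor cells of the second heart field.

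A peak is a stretch where the authors' peak caller found methylated fragments piled up in 1 library; the deposited score ranks its strength, is 50 at the lowest in every list, and has no stated scale. The lists held 34255 to 60653 peaks. They were longest on average at 72 h, with 56084 ± 6528 peaks, against 51287 ± 8068 in sham (SD, n = 3 each). In bulk tissue, a change in the mix of cells and a change of methylation within cells cannot be told apart.

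Promoter windows show the CG content of part of these genes. RefSeq promoter windows (GRCm38.p6; 250 bases before to 50 after a gene's start) were in the table used for 22 of the 39 genes, 24 windows in all. Of HoxC only Hoxc4 had a window, and of HoxB only Hoxb8, Hoxb4 and Hoxb1. The 24 windows held a median of 14.5 CG pairs, the site at which mammalian DNA is mainly methylated, against 7 over all 32851 windows. CG was searched as the letters CG, which read the same on both strands. Over 20 CG pairs were found in 8 of the 24 Hox windows (33.3%) and in 24.8% of all windows. The 4 windows printed here, all on the minus strand of chromosome 6, are those of Hoxa2, Hoxa3 and Hoxa5, the genes that gained a peak at 72 h, and of Hoxa13, the Hox window richest in CG. Each is written 5′ to 3′ with every CG in capitals. They lie at chr6:52164782-52165081 (Hoxa2, 9 CG pairs), chr6:52213018-52213317 (Hoxa3, 20 pairs), chr6:52204538-52204837 (Hoxa5, 29 pairs) and chr6:52260831-52261130 (Hoxa13, 45 pairs).
Hoxa2: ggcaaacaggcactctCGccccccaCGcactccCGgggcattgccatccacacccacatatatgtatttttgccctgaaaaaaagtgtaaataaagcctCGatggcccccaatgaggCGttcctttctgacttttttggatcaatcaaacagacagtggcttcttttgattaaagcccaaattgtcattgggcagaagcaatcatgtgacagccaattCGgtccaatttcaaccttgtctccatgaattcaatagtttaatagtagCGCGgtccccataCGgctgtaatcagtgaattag
Hoxa3: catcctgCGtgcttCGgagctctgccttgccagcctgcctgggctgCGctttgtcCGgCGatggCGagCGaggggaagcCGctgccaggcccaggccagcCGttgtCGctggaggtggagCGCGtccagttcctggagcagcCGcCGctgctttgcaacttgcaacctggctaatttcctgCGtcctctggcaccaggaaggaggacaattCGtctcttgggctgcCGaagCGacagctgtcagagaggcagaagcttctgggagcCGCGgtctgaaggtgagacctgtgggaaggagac
Hoxa5: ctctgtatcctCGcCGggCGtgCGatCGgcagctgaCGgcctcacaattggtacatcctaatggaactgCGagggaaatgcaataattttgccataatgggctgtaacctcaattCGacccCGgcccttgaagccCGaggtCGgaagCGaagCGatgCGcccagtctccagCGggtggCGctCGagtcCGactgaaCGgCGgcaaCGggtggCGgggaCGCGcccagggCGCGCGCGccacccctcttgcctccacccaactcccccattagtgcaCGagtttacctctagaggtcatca
Hoxa13: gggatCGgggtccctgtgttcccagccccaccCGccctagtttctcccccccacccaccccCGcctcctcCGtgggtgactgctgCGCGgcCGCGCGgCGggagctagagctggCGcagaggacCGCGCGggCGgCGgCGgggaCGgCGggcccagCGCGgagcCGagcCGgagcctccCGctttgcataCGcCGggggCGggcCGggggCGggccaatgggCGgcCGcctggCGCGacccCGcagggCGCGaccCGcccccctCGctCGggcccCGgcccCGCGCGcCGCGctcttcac
Of the 24 Hox windows, 1 was touched by a peak in any library. It was that of Hoxa5, in 72 h replicate 3 alone. Over all promoter windows, 8.93% were touched in at least 1 library, 1.06% of those with over 20 CG pairs and 11.5% of the others.

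The Hox clusters were almost bare of methylation peaks. In sham hearts 0.217% ± 0.188 of the length of the 4 clusters lay under peaks (SD, n = 3), and at 72 h 1.26% ± 0.318 (SD, n = 3). The clusters were measured from the first to the last Hox gene with 2000 bases added on each side. Over the 18 libraries they held 42 peaks in all, which merge into 15 separate regions. No library had a peak anywhere in the HoxC cluster, chr15:102919131-103038856, which is 119726 bases long and holds 9 genes from Hoxc4 to Hoxc13. Windows of that length centred on each of 21887 protein-coding genes held a median of 53 peaks over the 18 libraries, and 2.57% of them held none. HoxD (chr2:74666225-74767142) held 7 peaks, HoxA (chr6:52153367-52262880) held 13 and HoxB (chr11:96192316-96370254) held 22, where windows of the same lengths held medians of 44, 48 and 79. As few peaks or fewer were found in 10.0% of windows for HoxD, 13.2% for HoxA and 10.8% for HoxB, so low counts of this size were not rare.

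Compared within each library, the clusters carried less peak sequence than their surroundings. Over the 18 libraries 0.424% ± 0.431 of the clusters was under peaks. Windows of the same length on both sides of each cluster had 2.0% ± 0.439, and the clusters were lower in 18 of 18 libraries. The mean difference was -1.58 percentage points (permutation test by sign flips over libraries, two-sided p = 1e-05, adjusted p = 1e-05 over 3 comparisons, the smallest value the resampling can give). All protein-coding genes, with 2000 bases on each side, had 2.21% ± 0.313, again higher than the clusters in 18 of 18 libraries (difference -1.79 points, permutation p = 1e-05, adjusted p = 1e-05). A list of 56 other homeobox genes, such as Meis, Pbx, Dlx and Nkx genes, had 1.49% ± 0.340; the clusters were lower in 17 of 18 libraries (difference -1.07 points, permutation p = 1e-05, adjusted p = 1e-05). The exception was 72 h replicate 3, where the clusters were 0.361 points higher. The clusters include the stretches between genes, whereas the values of protein-coding and other homeobox genes cover gene windows only. The windows of the 39 Hox genes alone had 0.285% ± 0.569 under peaks, a value not used in the tests. These tests measure the spread between libraries and not that between genes. The gap to the flanks was present at each cluster that had peaks: HoxA had 0.725% against 3.06% and 3.97% on its sides, HoxB 0.626% against 2.10% and 3.11%, and HoxD 0.242% against 0.797% and 0.586% (means of 18 libraries). HoxC, at 0, lay between flanks of 1.06% and 0.572%. These means over 18 libraries do not describe HoxA at 72 h. There HoxA had 3.81% ± 1.21 and protein-coding genes 2.56% ± 0.237 (SD, n = 3 each). Only in 72 h replicate 2 was HoxA the lower, at 2.56% against 2.82%. The flanks of HoxA were not split by group.

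**Figure D1:**
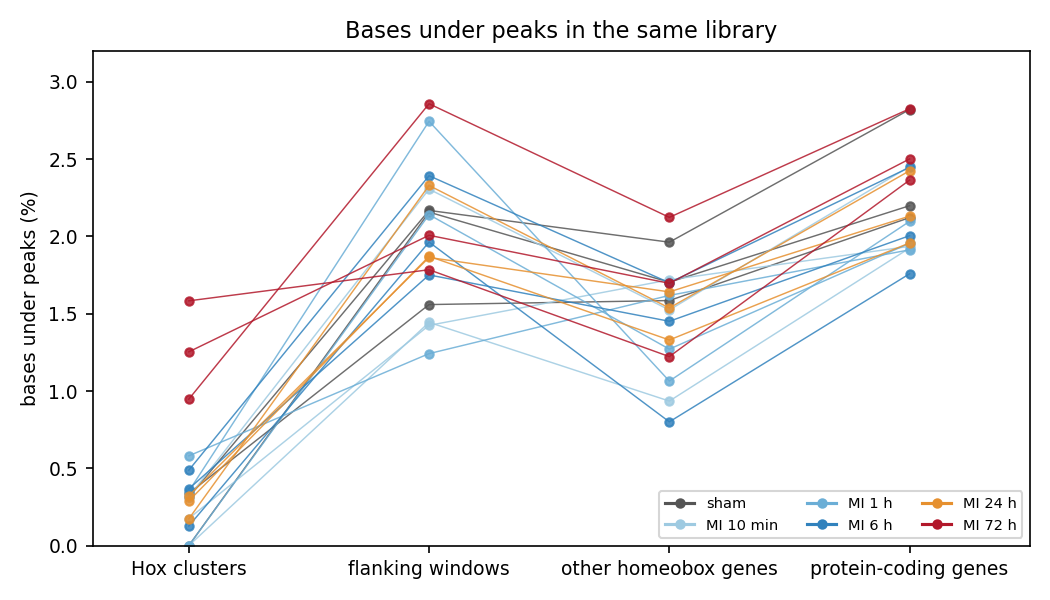
Percentage of bases under peaks (vertical axis) in the Hox clusters, in windows of the same length on both sides of them, in 56 other homeobox genes and in all protein-coding genes. Each line is 1 of the 18 libraries, coloured by group; every line rises from the clusters to the flanks and to the protein-coding genes, and 72 h replicate 3 is the 1 library in which the clusters lie above the other homeobox genes.

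Of the 39 Hox genes, 31 had no peak in any library within the gene and 2000 bases on each side, and 8 (20.5%) had one in at least 1 library. Among protein-coding genes 75.5% had one in at least 1 library. Protein-coding genes are longer, with a median of 17169 bases against 3737 for Hox genes, so these shares are not on a scale per length as the percentages above are. The median Hox gene had a peak in 0 libraries and the median protein-coding gene in 8. The 8 genes were Hoxa2, Hoxa3, Hoxa5, Hoxa6, Hoxa7, Hoxb3, Hoxb7 and Hoxd3. All belong to groups 2 to 7, and none of the genes of groups 8 to 13, which pattern the trunk, limbs and genital region, had a peak in any library. This split was made after seeing the values and was not tested. Hoxa3, Hoxb3 and Hoxd3 have long spans of 44009, 40830 and 36279 bases, and some neighbouring genes share peaks. Between Hoxb13 and Hoxb9, 17 peaks lay outside these windows. No gene had a peak in 9 or more libraries.

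At 72 h after ligation, peaks appeared at Hox genes, most of them in the HoxA cluster. The number of Hox genes with a peak was 5, 4 and 7 in 72 h replicates 1, 2 and 3, a mean of 5.33 ± 1.53 (SD, n = 3). In each of the 15 other libraries it was 0 or 1, with a mean of 0.333 ± 0.577 in sham and likewise in the 1 h, 6 h and 24 h groups, and 0 in all 3 libraries at 10 min. Against sham, the difference at 72 h was 5 genes (exact permutation p = 0.1, adjusted p = 0.5). In these full lists the 72 h range lay apart from all others, which did not hold with lists of equal length (given with the covered length). Of the 19 peaks at Hox genes, 15 came from the 72 h libraries and 4 from the other 15 libraries together. At 72 h replicate 1 had peaks at Hoxa2, Hoxa3, Hoxa5, Hoxa6 and Hoxd3. Replicate 2 had them at Hoxa2, Hoxa3, Hoxa5 and Hoxb3. Replicate 3 had them at Hoxa2, Hoxa3, Hoxa5, Hoxa6, Hoxa7, Hoxb3 and Hoxb7.

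**Figure D2:**
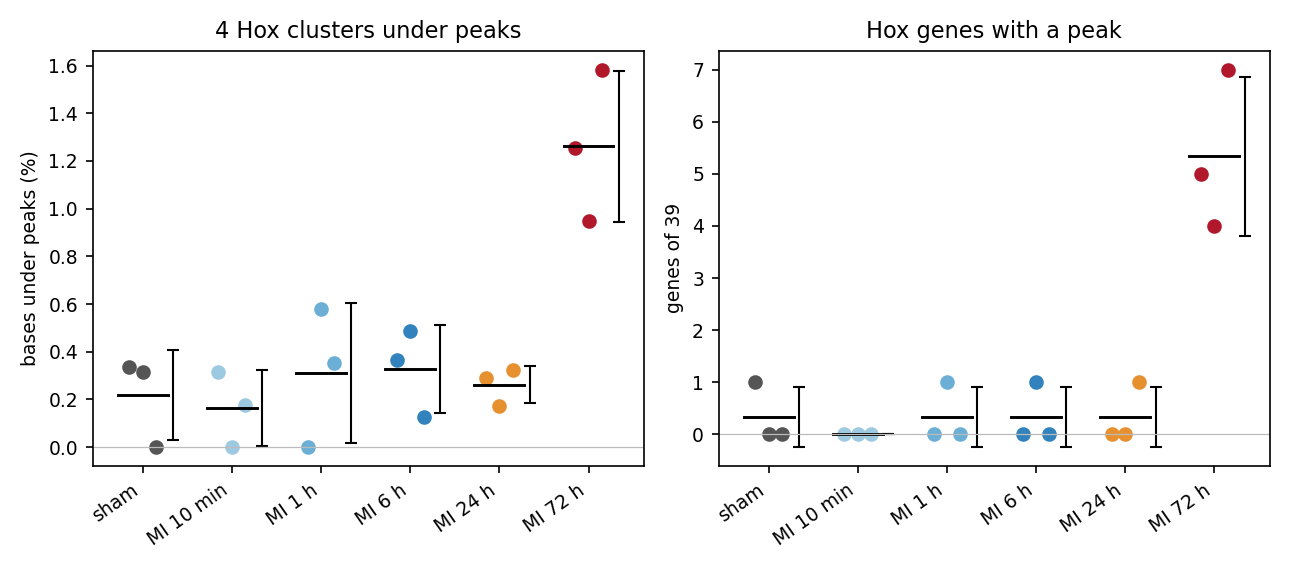
Left, percentage of bases of the 4 Hox clusters under peaks; right, number of the 39 Hox genes with a peak in the gene or 2000 bases around it. Points are libraries, horizontal bars group means and error bars SD (n = 3); the 72 h libraries, at 0.947% to 1.58% and 4 to 7 genes, lie above every other library.

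The length of the clusters under peaks followed the same order. It was 0.338%, 0.314% and 0% in sham replicates 1 to 3, and 1.25%, 0.947% and 1.58% at 72 h. The means were 0.163% ± 0.158 at 10 min and 0.311% ± 0.292 at 1 h, then 0.327% ± 0.184 for 6 h and 0.262% ± 0.0782 for 24 h (SD, n = 3 each), with 0.581% in 1 h replicate 2 as the highest library outside 72 h. Between the 6 groups lay 0.818 of the variance (permutation test, upper tail, p = 0.00633). Against sham, the difference at 72 h was 1.04 percentage points, with the exact permutation p = 0.1 (adjusted p = 0.5 over 5 times), the smallest value that 3 against 3 libraries allow, and all 3 libraries were above all sham libraries. The differences at 10 min, 1 h, 6 h and 24 h were -0.0537, 0.0936, 0.110 and 0.0445 points and lay within the spread of the replicates (exact permutation p = 0.8, 0.6, 0.5 and 0.9, adjusted p = 0.9 each). All 15 MI libraries differed from sham by 0.248 points (exact permutation p = 0.395). The clusters were chosen for study with earlier results of these data known, which these p-values do not allow for.

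The 72 h lists were also the longest on average. The part of list length was examined by taking equal lists and, for covered length, by dividing by the coverage of protein-coding genes. By replicate, the 72 h lists held 58992, 60653 and 48608 peaks, and the sham lists 49404, 60130 and 44328. Replicate 3 at 72 h, with the shortest of the 72 h lists, had the highest covered length and gene number in the full lists. When the 34255 top-scoring peaks were taken from each library, 0.603 of the variance lay between groups (permutation p = 0.0342) and the means were 0.612% at 72 h and 0.147% in sham, but the ranges overlapped: 72 h replicate 2 had 0.313%, below sham replicate 1 with 0.338% and below 1 h replicates 2 and 3 with 0.427% and 0.352%. The number of Hox genes with a peak was then 2, 1 and 4 at 72 h, a mean of 2.33 ± 1.53 (SD, n = 3), and replicate 2 tied with sham replicate 1 and 1 h replicate 2 at 1. For 72 h against sham with these equal lists, the exact permutation p was 0.2 for covered length and 0.2 for the gene number. The flanks of the clusters had 2.22% ± 0.566 under peaks at 72 h and 1.96% ± 0.348 in sham, and protein-coding genes 2.56% ± 0.237 and 2.38% ± 0.383 (SD, n = 3 each), so both ranges overlapped. With only peaks of score 100 or more, the rise was not seen: 1 peak was left at 72 h, and 0.346 of the variance lay between groups (permutation p = 0.32).

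In the HoxA cluster 3 genes were gained at 72 h, meaning that all 3 of the 72 h libraries and 0 of the 3 sham libraries had a peak: Hoxa2, Hoxa3 and Hoxa5. This was 3 of 39 Hox genes (7.69%), against 0.612% of protein-coding genes and 0.527% of genes of all types. No Hox gene was lost at 72 h, where 0.201% of protein-coding genes were. At 10 min, 1 h, 6 h and 24 h no Hox gene was gained or lost. The background for protein-coding genes at these times was 0.187%, 0.137%, 0.151% and 0.219% gained, and 0.53%, 0.567%, 0.681% and 0.48% lost. Neighbouring Hox genes share peaks, so the 3 genes are not 3 separate measurements. The RefSeq span of Hoxa3, 44009 bases, runs over Hoxa4, Hoxa5 and Hoxa6, and every peak counted for Hoxa5 or Hoxa6 lies in it.

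Hoxa2, which sets the identity of the second pharyngeal arch and of hindbrain segments, had the strongest and most repeatable of these peaks. The region, chr6:52163182-52163941, lies wholly inside the gene (chr6:52162417-52164831) and outside the promoter window printed above. The scores were 112, 83.5 and 93.6 in 72 h replicates 1 to 3, and no peak was called there in any of the 15 other libraries. Each peak scored above the median of its own library, higher than 80.0%, 60.0% and 75.5% of that library's peaks. The pattern of a peak in 3 of 3 libraries at 72 h and 0 of 15 others was looked for after this peak had been seen; 0.0631% of the 152196 merged regions of the genome had it, and 0.719% were gained at 72 h against sham. Of protein-coding genes 0.0503% had this pattern, among them Hoxa2 and Hoxa5. It was the 1 region of HoxA found in all 3 libraries at 72 h. Whether it covers exon or intron was not analysed here.

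Hoxa3, needed for the thymus, parathyroid and carotid arteries, was gained through several weaker regions. Region chr6:52176418-52177904 had peaks of score 87.5 and 51.4 in 72 h replicates 1 and 2, and of 57.3 in 24 h replicate 3; it overlaps the promoter window of the long noncoding RNA gene 5730596B20Rik. Region chr6:52185216-52185909 had peaks of 65.6 and 58.1 in 72 h replicates 1 and 3. No single region of Hoxa3 was found in all 3 libraries at 72 h, and the calls in the gene came from different places in different mice.

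Hoxa5, which acts in lung and axial skeleton development, and its neighbour Hoxa6 carried broad and weak peaks. In 72 h replicate 3 a peak of 3046 bases with a score of 52.8, chr6:52204150-52207195, covered the Hoxa5 promoter and reached into Hoxa6; it was the widest of the 42 peaks in the clusters. In replicate 1 a peak of 1545 bases with a score of 52.3, chr6:52205702-52207246, lay in Hoxa6 and within 2000 bases of Hoxa5. In replicate 2 the Hoxa5 call rested on another peak, chr6:52200014-52201324, of score 56.2. These scores were near the lowest score of 50, higher than 8.28%, 5.29% and 14.5% of the peaks in their own libraries, and with equal numbers of peaks from each library Hoxa5 and Hoxa3 were no longer gained and 1 Hox gene was. Hoxa7 had a peak 1313 bases outside the gene, chr6:52219886-52220973, in 72 h replicate 3 (score 65.9) and in sham replicate 1 (score 77.8); this was the 1 peak at a Hox gene in any sham library.

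**Figure D3:**
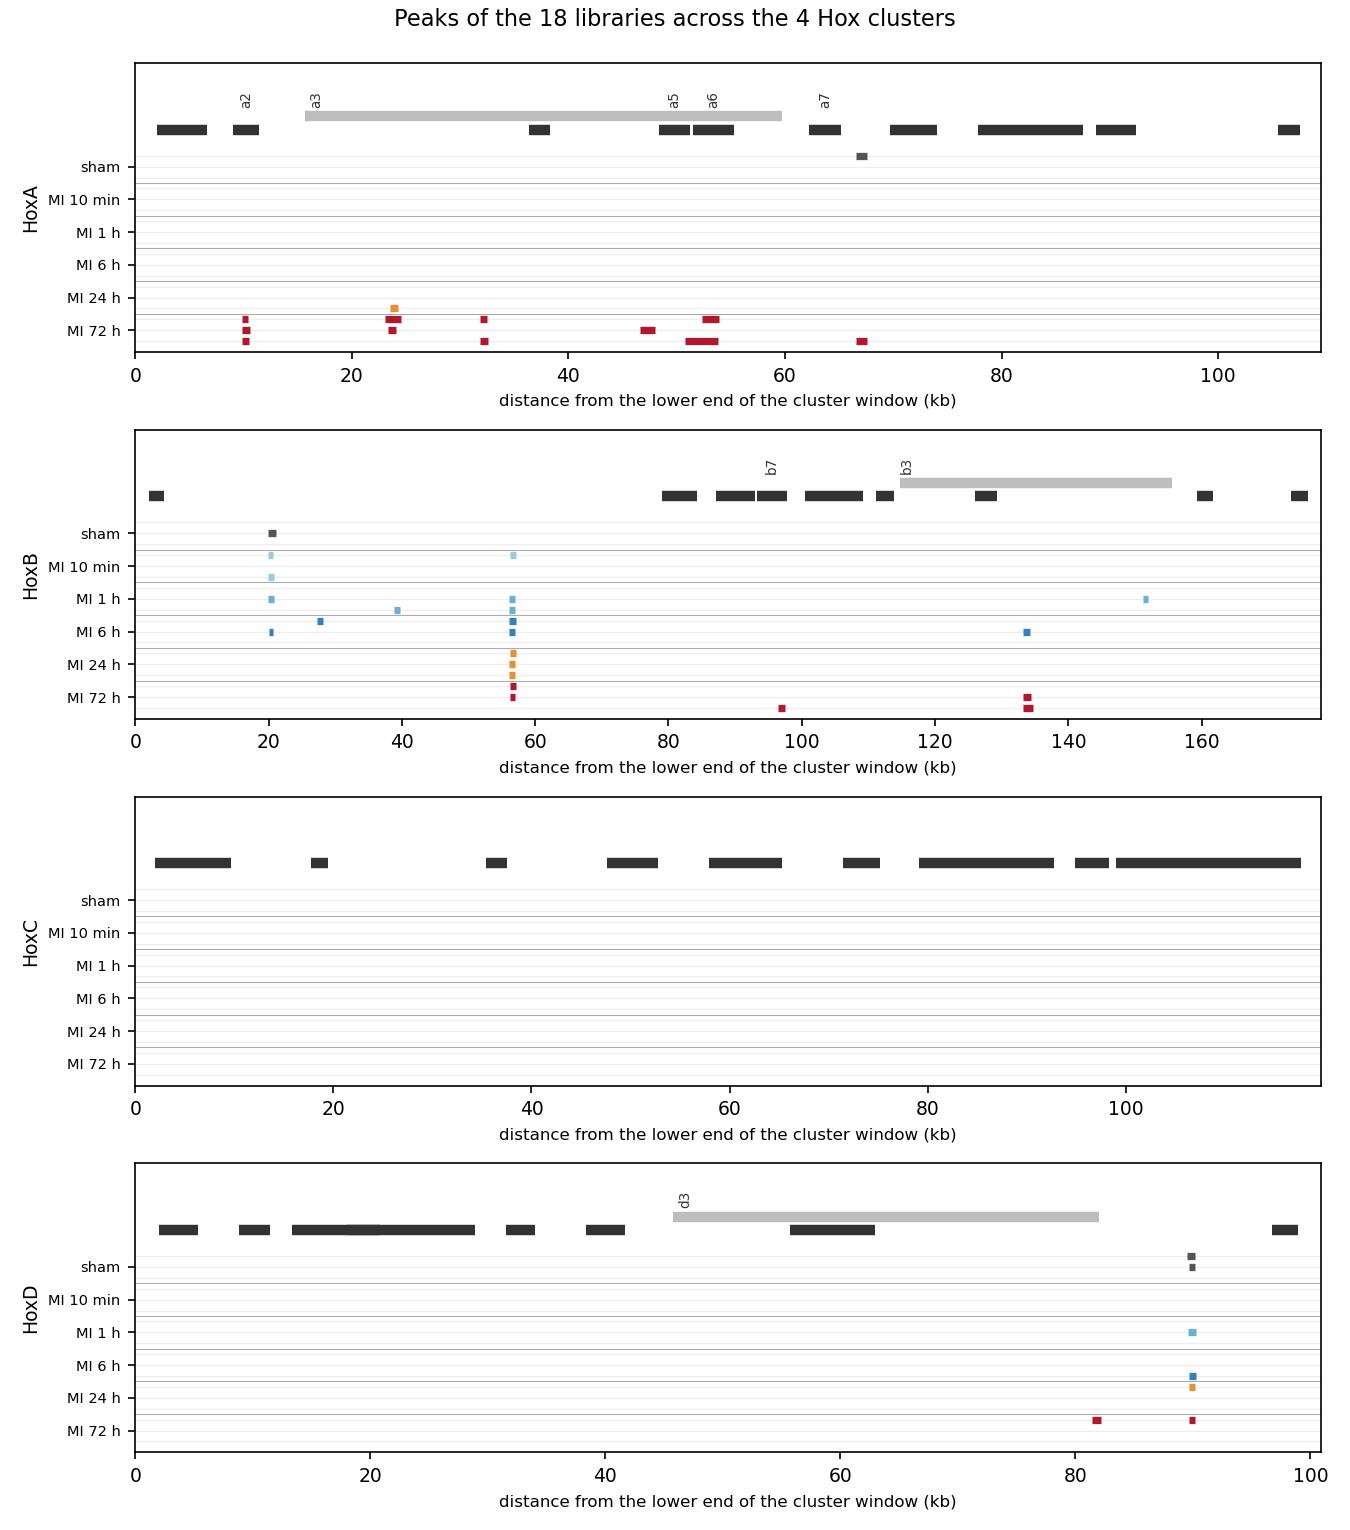
Peaks of the 18 libraries (coloured bars, 3 rows a group in replicate order) across the HoxA, HoxB, HoxC and HoxD clusters, with the distance from the lower end of each cluster window in kb. Black bars are Hox genes, named where a peak was called in any library, and grey bars the long RefSeq spans of Hoxa3, Hoxb3 and Hoxd3; the 72 h libraries hold 11 of the 13 HoxA peaks, and the HoxC panel is empty.

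Outside HoxA, 3 Hox genes had peaks. Hoxb3, whose RefSeq span of 40830 bases runs over Hoxb4, had them in 4 libraries. Region chr11:96325462-96327009 had scores of 54.4 and 61.8 in 72 h replicates 2 and 3 and of 56.0 in 6 h replicate 2, and region chr11:96343553-96344202 had a score of 71.7 in 1 h replicate 2. Hoxb7 had 1 peak, in 72 h replicate 3 (chr11:96288765-96289796, score 77.7). Hoxd3 had 1, in 72 h replicate 1 (chr2:74747621-74748373, score 50.5). None of these genes had a peak in sham, and each had one in 1 or 2 of 3 libraries at 72 h. For single clusters, a split made after seeing the data, HoxA had 3.81% ± 1.21 of its length under peaks at 72 h and 0.314% ± 0.544 in sham (SD, n = 3 each). HoxB had 1.01% ± 0.502 and 0.201% ± 0.349, and HoxD 0.428% ± 0.741 and 0.397% ± 0.354. In HoxB and HoxD the ranges overlapped: the lowest 72 h library had 0.464% in HoxB and 0% in HoxD, and the highest sham library 0.604% and 0.679%.

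Peaks also lay between genes. Of the 42 peaks 23, in 5 regions, were outside the 2000 bases around any Hox gene, and 17 of these lay in the long interval between Hoxb13 and Hoxb9. The most frequent was chr11:96248377-96249427, at the pseudogene Gm11539, 21903 bases from Hoxb9. It had a peak in 10 of 18 libraries, in 0 of 3 sham, 1 of 3 at 10 min, 2 of 3 at 1 h and at 6 h, 3 of 3 at 24 h and 2 of 3 at 72 h. Its scores at 24 h were 79.0, 143 and 101 in replicates 1 to 3, and 143 was the highest of the 42 peaks. It was thus gained at 24 h, as were 0.393% of all merged regions, and it was the 1 region of the clusters gained at that time. The second, chr2:74755728-74756507, lies in the long noncoding RNA gene Haglr between Hoxd3 and Hoxd1. It had peaks in 6 libraries, with scores of 63.1 and 86.3 in sham replicates 1 and 2, 126 in 1 h replicate 2, 105 in 6 h replicate 3, 62.4 in 24 h replicate 1 and 82.8 in 72 h replicate 1. These are scattered over 5 of the 6 groups. The third, chr11:96212171-96213372, 15561 bases from Hoxb13, had a peak in 5 libraries, in sham replicate 2, 10 min replicates 1 and 3, 1 h replicate 2 and 6 h replicate 2, and in none at 24 h or 72 h. At 72 h, 3 of the 18 cluster peaks lay between genes, and in the 15 other libraries 20 of 24 did, a comparison made after seeing the values and not tested. The other 2 regions between genes, with Hoxb13 as the nearest Hox gene, had a peak in 1 library each, 6 h replicate 1 (score 50.9) and 1 h replicate 3 (score 58.8).

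**Figure D4:**
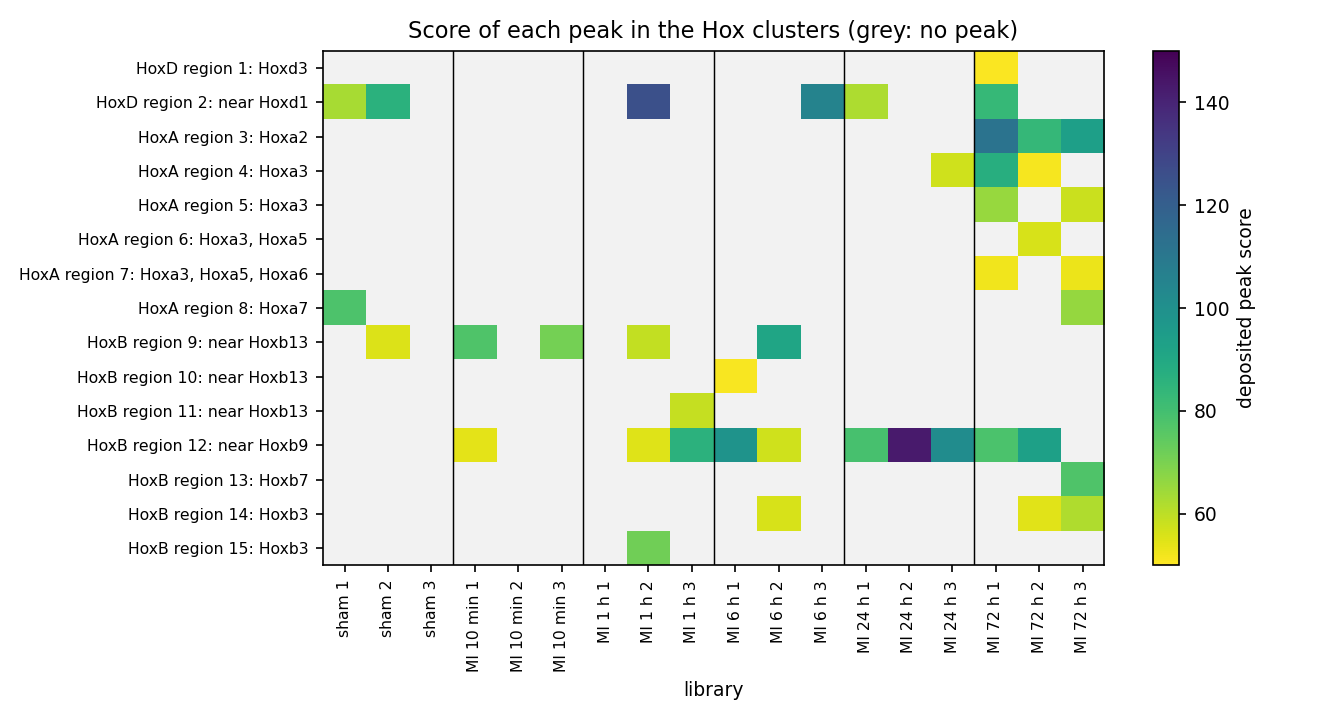
Deposited score of every peak in the Hox clusters, with the 15 merged regions as rows and the 18 libraries as columns; grey is no peak. The Hoxa2 region is filled in all 3 libraries at 72 h and in no other, with scores of 83.5 to 112, while the region near Hoxb9 is filled in 10 libraries from 10 min on and in 0 of 3 sham libraries.

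The clusters hold 6 microRNA genes, Mir10a, Mir10b, Mir196a-1, Mir196a-2, Mir196b and Mir615. The microRNAs of the Mir10 and Mir196 genes target Hox transcripts among others. None of the 6 genes had a peak in any library within its hairpin or 2000 bases around it. Evx1 and Evx2, the even-skipped homeobox genes beside HoxA and HoxD, had none either. Of the 56 other homeobox genes 25 (44.6%) had a peak in at least 1 library, against 75.5% of protein-coding genes. None was gained at any time, and 1 or 2 of the 56 were lost at each, where 0.201% to 0.681% of protein-coding genes were. Isl2 had peaks in all 3 sham libraries and none of the 15 MI libraries, as did 0.0137% of protein-coding genes (3 of 21887), a pattern looked for after its values were seen. Its losses at the 5 times share the same sham libraries and are not separate. Six2 was lost at 10 min and 6 h. Meis1 and Pbx3, which encode partners that bind DNA together with Hox proteins, had a peak in 18 of 18 libraries. Of 18 genes for Polycomb and trithorax proteins, which keep Hox genes off or on, 17 (94.4%) had a peak in at least 1 library. Among them Cbx2, Cbx7 and Jarid2 had one in 18 of 18. Of protein-coding genes 75.5% had one in at least 1 library. The median gene of the Polycomb and trithorax list had a peak in 12 libraries, against 8 for protein-coding genes. None of the list was gained or lost at any time. These counts do not allow for gene length.

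The share of CG-rich promoter windows under peaks was also recorded by group. Of all windows with over 20 CG pairs, 0.409% ± 0.0719 were touched at 72 h and 0.290% ± 0.0431 in sham (SD, n = 3 each). The lowest 72 h library had 0.356%, below the highest library at 24 h with 0.380%, and the highest sham library had 0.331%. Of windows with at most 20 CG pairs, 4.13% ± 0.475 and 3.65% ± 0.772 were touched. These differences, and their part in the Hox result, were not tested.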

How the data were processed

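The 18 deposited peak lists, 1 a library, give chromosome, start, end, name and the authors' score for each peak. Per the submitters' processing notes, the tools named are Bowtie2 and MACS2 and the build is mm10, the same coordinates as GRCm38; versions, options and any input control are not given in the sources used here. No read counts were used, so depth is unknown and no counting interval can be given. The build was checked on the lists: 8.93% of RefSeq promoter windows touched a peak, against 12.5% and 12.3% with the windows moved by 20000 bases up or down.

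A peak counted for a gene when it overlapped the gene span, or 2000 bases on each side, by at least 1 base. Covered length was the bases under peaks divided by the length. Overlapping peaks from the 18 lists were joined into 152196 regions. Values of 6 groups were compared by the share of variance between groups (100000 relabelings), each time against sham by exact permutation of the difference in means (two-sided), clusters against other parts by sign flips over 18 libraries; Benjamini-Hochberg adjustment covered 5 times or 3 comparisons. Samples were grouped by their titles; separate mice are stated by the labels. Named in full were genes with a peak in at least 9 of 18 libraries, genes and regions gained or lost, and regions with a peak in at least 6 libraries; the few others were named after their values were seen. Some genes are counted but not reported here by name. Members and lists were chosen with earlier results of these data known. Programs were tested on simulated data (Python 3.11.15, numpy 2.4.6, pandas 2.3.3, scipy 1.17.1). Alternatives were a score of at least 100, the 34255 top-scoring peaks of each list, peak midpoints, 0 or 5000 added bases, each library left out and a replicate block. Another was cluster coverage divided by the coverage of protein-coding genes.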

Additional observations from a re-analysis of the deposited data

Results flagged for a closer look

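The number of Hox genes with a peak lay above the sham mean of 0.333 in all 3 libraries at 72 h and below it in all 3 at 10 min, which drew attention as opposite movements under the same comparison with sham. The mean at 72 h was 5.33 genes higher than at 10 min, where all 3 libraries had 0. The difference between these 2 times was not tested. The 10 min side rests on a single sham library, replicate 1, with its 1 gene. With 3 libraries a group, none was searched for libraries far from the rest.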

How the results depend on the processing

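Peak midpoints and other added lengths (0 or 5000 bases) kept the direction and the side of the threshold of every coverage value, and leaving out 1 library moved the share of variance of cluster coverage between 0.758 and 0.855 and that of the gene number between 0.871 and 0.926. With scores of at least 100 these shares fell to 0.346 and 0.294; 5 of the 42 peaks were that strong, so the stricter list leaves little to compare. The 3 genes gained at 72 h became 0 with scores of at least 100, 1 with equal lists, 2 with no added bases (Hoxa5 overlapped a peak by its own span in 1 library) and 5 with 5000, and 3 to 4 with 1 library left out. Alternatives by cluster were added after seeing the data. The share of variance was 0.900 for HoxA, 0.290 for HoxB and 0.146 for HoxD, and 0.861 without the interval between Hoxb9 and Hoxb13. Small differences from sham changed sign; the cause was not tested. In HoxA alone they were -0.314 points for both 1 h and 6 h and -0.0892 for 24 h. In HoxB alone 10 min gave 0.265. In HoxD alone they were -0.172 at 1 h, -0.184 at 6 h, -0.211 at 24 h and -0.187 for all MI. Without the Hoxb9 to Hoxb13 interval they were -0.0687, -0.0447 and -0.0710 at 1 h, 6 h and 24 h. With 1 library left out they ran from -0.162 to 0.0280 at 10 min, -0.0413 to 0.249 at 1 h and -0.0641 to 0.105 at 24 h, and from 0.883 to 1.20 at 72 h. With cluster coverage divided by the coverage of protein-coding genes, the share of variance was 0.735 (permutation p = 0.00799). The mean ratios were then 0.502 at 72 h and 0.0901 in sham (exact permutation p = 0.1, adjusted p = 0.5). Replicate numbers did not pair the libraries (correlation of deviations with the same-numbered sham library -0.0626 to 0.0619; best with the own number in 34 of 90 cases). A replicate block gave shares of 0.818 (permutation p = 0.0234) for coverage and 0.903 for the gene number, and changed no call. Of the 42 peaks, 19 reached the median score of their library, which is near the share that a median gives over all peaks. The small number of peaks is a limit of these comparisons.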

Other observations

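Few protein-coding genes shared the pattern of Hoxa2 and Hoxa5, a peak in or within 2000 bases of the gene in 3 of 3 libraries at 72 h and in 0 of 15 others. There were 11 of 21887 (0.0503%), a rule chosen after the Hoxa2 peak had been seen. Beside the Hox genes they were Gata4, a core cardiac transcription factor, Cxcl10, an interferon-induced chemokine, Kmt2e, Ddit4l, B3gnt3, Med9, Ush1g, Sfxn3 and Gm3404. For Hoxa5 the calls came from different peaks in different libraries, as described above. Its place in this group rests on the window and not on a shared peak. Whether the calls of the genes outside the Hox clusters come from a shared peak was not examined.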
